A study of Schmidtea mediterranea with 5 samples.

Results

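The first 2 days of dark after a long light exposure were examined in Schmidtea mediterranea, a planarian flatworm, from RNA of whole animals. The 1-day and 2-day dark-return libraries were combined as 2 early libraries and set against the library made at the end of light. These are 3 of the 5 libraries of the series. All animals were of the clonal asexual strain CIW4, and 1 week of starvation is recorded for them. The early dark-return animals had 8 days of light followed by 1 or 2 days back in the dark, and the late dark-return animals had 8 days of light and 8 days of dark. The early libraries were compared with animals collected at the end of 8 days of light, and animals kept in the dark without light treatment were the control of the series. The sources used here do not say whether the time since the last meal was the same in all groups. Groups were taken from the sample titles, because the treatment field speaks of gene knockdown by RNA interference and of cut animals, which no title mentions. Each library pooled 3 biological replicates before sequencing, so each condition has 1 library and the spread between animals was not measured. No p-value is given, and a difference set by the condition and one set by the pool cannot be told apart.

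Planarian body colour comes from pigment cells under the dorsal epidermis, which hold ommochromes, made from tryptophan, and porphyrins, made on the haem pathway. Porphyrins are photosensitive, and prolonged light leads to the loss of pigment cells in this species. Pigment cells are then replaced from stem cell progeny in the dark, and transcription factors of the FOX and ETS families act in that lineage. The deposited table numbers its transcripts as contigs of an assembled transcriptome and pairs no number with a gene name. Known pigment, stem cell and epidermal genes could therefore not be looked up, the labelled tissue could not be checked against markers, and no role is given to any transcript below. In RNA from whole animals, fewer cells of a type and less RNA per cell cannot be told apart.

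The early libraries held 42909193 reads after 1 day and 50045371 reads after 2 days of dark, and the light library, the shallowest of the 5, held 38447289 reads. At these depths 1 read was worth 0.0233, 0.0200 and 0.0260 CPM (reads per 1000000 reads of the library), and a count of 0 allowed a level of up to 0.0699, 0.0599 and 0.0780 CPM (3 reads). Of 82843 transcripts in the table, 21307 averaged 1 CPM or more over the 5 libraries and were compared. They held 98.6% to 98.8% of the reads of each library. Intervals below are exact 95% intervals of a ratio of CPM (conditional binomial, Clopper-Pearson). They cover counting error only, and reads without molecular identifiers are not independent molecules.

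Few transcripts differed in both early libraries from the end of light. A transcript was called where the mean of its 2 log2 ratios of (CPM + 1) was at least 2-fold in size and both early libraries lay on the same side of the light library. By this rule 21 transcripts stood higher early than at the end of light, which is 0.0986% of those compared, and 8 stood lower, which is 0.0375%. Together they made up 0.136%. Both ratios of a transcript have the same light library below the line, so agreement between the 2 days is in part set by that library. Both early libraries lay above the light library for 8232 transcripts and below it for 7141, and for 5934 they lay on opposite sides. No transcript passed the mean of 2-fold with the 2 days on opposite sides. The 8 lower transcripts were each at least 2-fold lower in both early libraries, and 11 of the 21 higher ones (0.0516% of those compared) were at least 2-fold higher in both. All 21 higher transcripts were at least 2-fold higher after 2 days, as were 29 (0.136%) in all.

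Most transcripts lay close to the light library. The mean log2 ratio over the 21307 had a median of 0.01 and an SD of 0.16. Ratios between the libraries had SDs of 0.18 for 1 day against light, 0.17 for 2 days against light and 0.14 for 2 days against 1 day. The 2 sides of the threshold were reached differently. On the lower side a gap separated the called transcripts from the rest, with -1.41 as the smallest called value and -0.99 as the largest value not called. On the higher side there was no gap, with 1.00 just inside the threshold and 0.99 just outside. The last transcript inside had 5.97 and 7.01 CPM in the 2 early libraries and 2.73 CPM at the end of light. The first one outside had 1.21 and 1.28 CPM early and 0.130 CPM at the end of light.

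**Figure D1:**
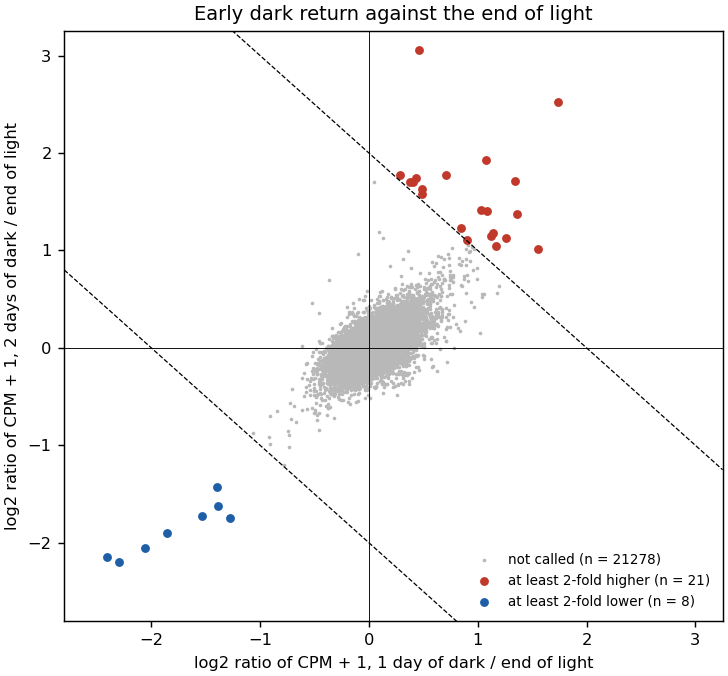
Log2 ratio of CPM + 1 to the end of light after 1 day (horizontal) and 2 days (vertical) of dark for 21307 transcripts, with dashed lines where the mean of both ratios is 2-fold. The 8 lower transcripts (blue) stand apart from the cloud, while the 21 higher ones (red) adjoin it; both axes share the light library.

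The called transcripts were mostly of low abundance on the higher side and of mixed abundance on the lower side. Mean levels over the 5 libraries ranged from 1.47 to 57.6 CPM for the 21 higher transcripts, with a median of 3.92 CPM. The top of this range, SmedASXL_002843, had 262 CPM in the dark control but at most 4.64 CPM in the early and light libraries. For the 8 lower transcripts mean levels ranged from 1.08 to 3785 CPM, with a median of 12.2 CPM, against a median of 8.87 CPM for all transcripts compared. Of the 8429 transcripts averaging under 5 CPM, 13 were called higher and 2 lower. Of the 1653 averaging 100 CPM or more, 0 were called higher and 2 lower. The 8 lower transcripts took 0.229% of the reads after each of 1 and 2 days, against 0.947% at the end of light. The 21 higher ones took 0.0117% after 1 day and 0.0220% after 2 days, against 0.00534% at the end of light.

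All 21 intervals of the ratio of CPM to light lay above 1 at both days, and all 8 intervals of the lower transcripts lay below 1. These intervals rest on the same values that chose the transcripts, so they are given as a description only. At 2-fold, the excess of higher transcripts moved with the weight given to low levels. When 5 CPM was added instead of 1 CPM, the numbers were 1 higher and 6 lower. Among transcripts averaging 10 CPM or more they were 4 higher and 4 lower. At 1.5-fold, 40 were higher and 4 lower among transcripts averaging 10 to 100 CPM, and 4 and 7 at 100 CPM or more. The counting interval of the summed early reads lay wholly past 2-fold for 49 higher and 8 lower transcripts.

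Among transcripts averaging 5 CPM or more, SmedASXL_023953 stood highest early relative to light. It had 4.24 CPM after 1 day and 8.03 CPM after 2 days, against 0.572 CPM (22 reads) at the end of light. Its late dark-return level was 4.25 CPM and its dark control level 9.91 CPM. It was thus low at the end of light, came nearest to the control after 2 days and stood lower again after 8 days. The ratio of CPM to light was 7.41 after 1 day (interval 4.75 to 12.1) and 14.0 after 2 days (9.14 to 22.7). After 2 days it was 1.89-fold above the first day (1.59 to 2.27).

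SmedASXL_004258 came second, with 9.35 CPM after 1 day and 12.4 CPM after 2 days, against 3.07 CPM at the end of light. It stood at 6.52 CPM after 8 days of dark and at 4.29 CPM in the dark control. Both early levels exceeded the control, by 2.18-fold after 1 day (1.83 to 2.60) and 2.88-fold after 2 days (2.45 to 3.41). The ratio of this transcript to its control level was 0.716 at the end of light (0.564 to 0.905). It thus stood below the control there and above it on both early days. With 5 CPM added, its mean log2 ratio to light was 0.97 and that of SmedASXL_023953 was 0.98, both just under 2-fold.

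SmedASXL_002439, the second highest after 2 days, had 24.1 CPM after 1 day and 44.4 CPM after 2 days, against 10.9 CPM at the end of light. Its level was 9.31 CPM after 8 days of dark and 4.88 CPM in the dark control. The 2-day level was 9.11-fold above the dark control (7.92 to 10.5), and the 8-day level was 1.91-fold above it (1.62 to 2.26). Its mean early level was also the second highest relative to the dark control among transcripts of at least 5 CPM. SmedASXL_001801, singled out after its values were seen because it had the second highest mean ratio to light of all 21307, was high in 1 library. It had 1.70 CPM after 1 day and 15.3 CPM after 2 days, against 0.962 CPM at the end of light, with 1.40 CPM after 8 days and 0.587 CPM in the dark control.

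The higher transcripts were sorted by their levels beside the dark control, which enters their choice only through the filter on mean level. The light library enters both the choice and the comparison of light with the control, so the values are given side by side. It was the lowest of the 5 libraries for 19 of the 21, as for 23.3% of all transcripts compared, and the rule sets it below both early libraries. In 15 of the 21 the light library was at least 2-fold below the dark control, as it was for 1.67% of all transcripts compared, and in these 15 both early libraries were also below the control. Their levels were 1.35 to 16.5 CPM after 1 day and 1.68 to 14.9 CPM after 2 days, against 0.208 to 6.29 CPM at the end of light. As a percentage of the control level, their median was 34.3% on the first day, 53.8% on the second and 34.5% on the eighth, against 9.09% at the end of light. Without the block of 6 alike transcripts described below, the other 9 had medians of 42.8%, 50.4% and 42.9%, against 9.04% at the end of light. Of the 6 higher transcripts outside the 15, 5 stood above the dark control on both early days, including SmedASXL_004258, SmedASXL_002439 and SmedASXL_001801. These 5 had a median of 218% of it on the first day, 288% on the second and 191% on the eighth, against 98.4% at the end of light. The sixth, SmedASXL_011684, stood at 92.4% of its control level after 1 day and at 268% after 2 days. Over all transcripts compared, the mean early level was above the control for 57.3% and below it for 42.7%.

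SmedASXL_002843, one of the 15, was the transcript with the second lowest early level relative to the dark control. It had 3.31 CPM after 1 day and 4.64 CPM after 2 days, against 1.40 CPM at the end of light. After 8 days of dark it stood at 17.0 CPM, and the dark control had 262 CPM. Its early levels were 2.36-fold (1.71 to 3.29) and 3.30-fold (2.45 to 4.52) above light, yet 79.1-fold (67.0 to 94.0) and 56.4-fold (49.6 to 64.6) below the control. The lowest early level relative to the control belonged to SmedASXL_020150, which was not called. It had 29 reads after 1 day and 4 reads after 2 days, against 1 read at the end of light, with 172 reads after 8 days and 3446 reads in the dark control. Its ratio to light was 26.0 after 1 day (4.31 to 1061) and 3.07 after 2 days (0.304 to 151), so the second of these could not be told from no difference at this depth. It had 77.8 CPM in the dark control and at most 3.58 CPM in any other library, so it passed the filter through the control. The control enters both the filter and this ranking, so a low early level against it is in part set by the filter. Across all transcripts compared, both early libraries were at least 2-fold above the dark control for 85 (0.399%) and at least 2-fold below it for 206 (0.967%). The highest ratio of the mean early level to the dark control, among transcripts averaging 5 CPM or more, was that of SmedASXL_013874, with 79.6 and 68.4 CPM on the 2 early days, against 8.51 CPM in the dark control. It had 111 CPM at the end of light and 11.5 CPM after 8 days of dark, so its early levels lay nearer to light than to the control.

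**Figure D2:**
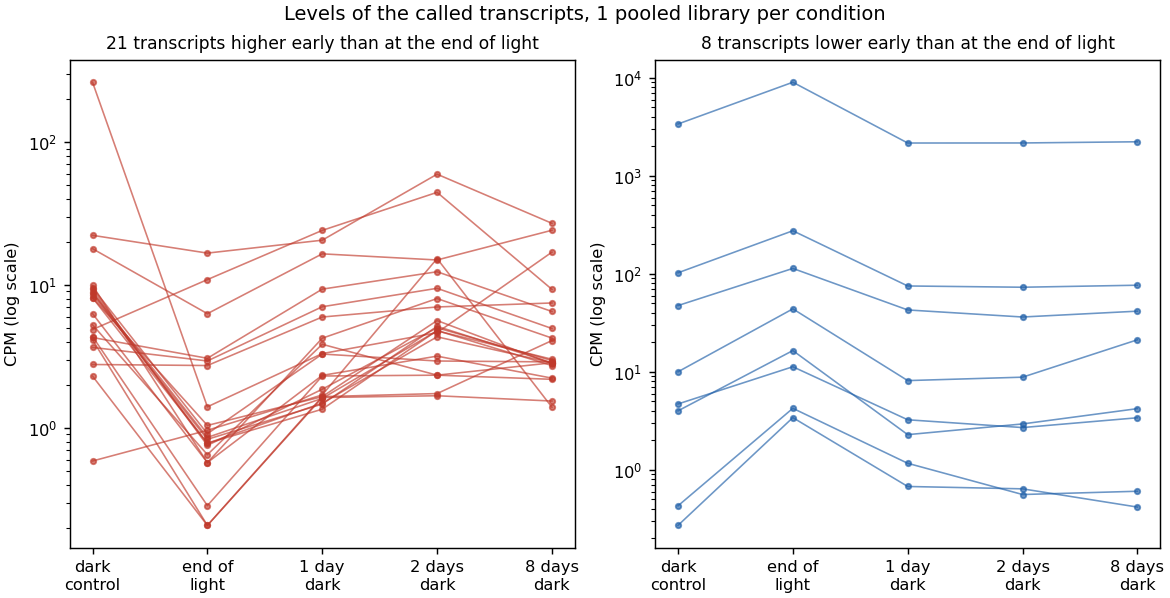
CPM on a log scale in the 5 libraries for the 21 transcripts called higher (left) and the 8 called lower (right) early than at the end of light, with 1 line per transcript and 1 pooled library per point. On the left, 19 lines have their lowest point at the end of light, and 15 of these fall to 0.208 to 6.29 CPM and stay under their dark control level early. On the right, every line peaks at the end of light.

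The rule sets the light library above both early libraries for the 8 lower transcripts. In all 8 it also stood above the late library and the control, and the light library was the highest of the 5 for 19.3% of all transcripts compared. It was at least 2-fold above the dark control for all 8, as for 0.643% of all transcripts compared. SmedASXL_076122 was the lowest early relative to light, with 2.28 CPM after 1 day and 2.94 CPM after 2 days, against 16.5 CPM at the end of light. It had 4.21 CPM after 8 days and 4.00 CPM in the dark control. Its CPM was 7.21-fold below light after 1 day (5.82 to 9.01) and 5.61-fold below it after 2 days (4.68 to 6.75).

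SmedASXL_064188 had 8.13 and 8.81 CPM on the 2 early days, against 43.9 CPM at the end of light. After 8 days it stood at 21.2 CPM, 2.12-fold above the dark control (1.89 to 2.38), and it was the 1 member of the 8 at least 2-fold above the control at that time, against 0.390% of all transcripts compared. Most of the reads of this set came from SmedASXL_012104, named after its values were seen as the most abundant called transcript. It had 2160 CPM after 1 day and 2162 CPM after 2 days, against 9005 CPM at the end of light, with 2224 CPM after 8 days and 3375 CPM in the dark control. The 3 dark-return libraries thus lay between 2160 and 2224 CPM, below the control. Its CPM was 4.17-fold below light after 1 day (4.14 to 4.20) and 4.16-fold below it after 2 days (4.14 to 4.19).

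Of the 8 lower transcripts, 6 stood below the dark control in both early libraries, at 57.2% to 90.2% of its level after 1 day and 57.4% to 88.1% after 2 days. The remaining 2 stood above it, but had at most 1.17 CPM early, 0.429 CPM in the control and 4.24 CPM at the end of light. Over all transcripts compared, the mean early level was below the control for 42.7%. Because 1 library carries the peak of all 8 transcripts, a property of that pool and an effect of light on them cannot be told apart. The same holds for the low levels of the higher transcripts in the light library.

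The late dark-return library and the dark control do not enter the early ratios, only the filter on mean level, so the ratio of one to the other was described for the called sets. In the 21 higher transcripts the log2 ratio of 8 days of dark to the dark control had a median of -0.97, with 14 below 0 and 10 at least 2-fold lower. This value turned on 6 transcripts with nearly the same levels in every library, described below. Without them the other 15 had a median of -0.01, with 8 below 0 and 4 at least 2-fold lower. The 8 lower transcripts had a median of -0.06, with 4 below 0. All 21307 transcripts had a median of 0.07, with 39.0% below 0 and 213 (1.00%) at least 2-fold lower. The negative median of the higher set came with its low transcripts. Among transcripts averaging 5 CPM or more, 8 were called higher and their median was 0.38.

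Within the 21, the 15 whose level at the end of light was at least 2-fold below control had a median of -1.26 after 8 days, with 14 below the control. Without the 6 alike transcripts the other 9 of these had a median of -0.97, with 8 below it. The 5 above control on both early days had a median of 0.59, and all 5 were above the control after 8 days. The control enters the choice of both these groups. Against the mean of the 2 early days, the late library was lower for 13 of the 21 and higher for 8, with a median log2 ratio of -0.07. For all transcripts compared this median was 0.03, with 43.6% lower late than early, and the early libraries enter both the choice of the 21 and this ratio.

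**Figure D3:**
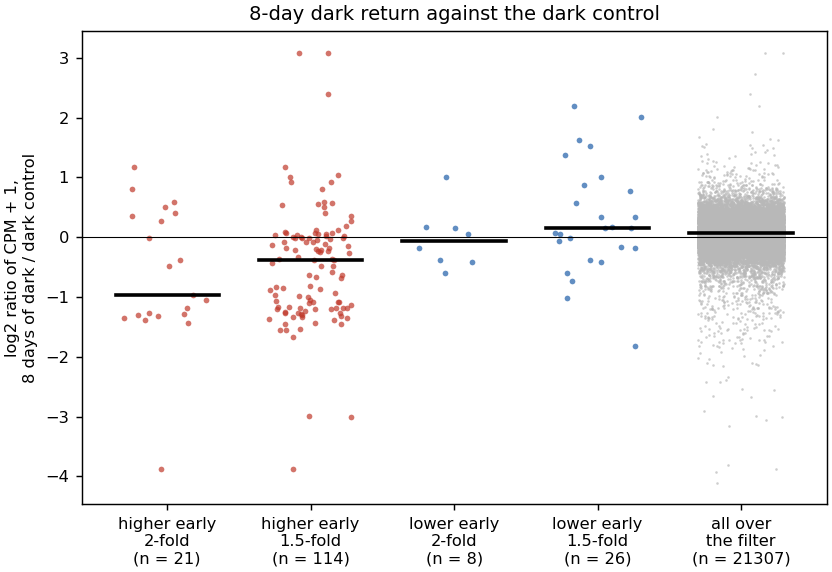
Log2 ratio of CPM + 1 between 8 days of dark and the dark control for the called sets and for all 21307 transcripts compared, with 1 point per transcript and a black bar at the median. The 2-fold higher set has its median at -0.97 (-0.01 without the 6 alike transcripts) and all transcripts at 0.07; the scatter of the sets is wide and 7 of the 21 lie above 0.

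A lower threshold gave larger sets. At 1.5-fold, 114 transcripts (0.535%) were higher early than at the end of light and 26 (0.122%) were lower, together 0.657%. The share called was of similar size at all levels of abundance, at 0.783% of transcripts averaging under 5 CPM, 0.706% at 5 to 10 CPM, 0.516% at 10 to 100 CPM and 0.665% at 100 CPM or more. Under 5 CPM 58 were higher and 8 lower, and at 5 to 10 CPM 12 were higher and 7 lower. At 10 to 100 CPM 40 were higher and 4 lower, while at 100 CPM or more 4 were higher and 7 lower.

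Of the 114 higher transcripts, 66 had light at least 2-fold below the dark control, 44 had it within 2-fold and 4 had it at least 2-fold above. Over all transcripts compared, light was at least 2-fold below the control for 1.67% and at least 2-fold above it for 0.643%. The light library enters the choice of the 114. The 66 had a median of 35.8% of the control level on the first day, 40.7% on the second and 34.7% on the eighth, against 9.30% at the end of light. Their median level was 1.72 CPM after 1 day and 2.57 CPM after 2 days, against 0.715 CPM at the end of light and 8.07 CPM in the dark control. From the early days to 8 days of dark their median log2 ratio was 0.05, with 35 higher and 31 lower late than early. The early libraries enter both the choice of these transcripts and this ratio, and over all transcripts compared the median was 0.03, with 43.6% lower late than early. After 8 days 39 of the 66 were at least 2-fold below the control, which enters their choice, against 1.00% of all transcripts compared. Without the block of 6 alike transcripts described below, this held for 33 of the other 60.

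The 44 with light within 2-fold of the control were so on the CPM + 1 scale. In CPM their light level was 23.9% to 355% of the control, with a median of 67.6%. Their medians were 122% of it on the first day, 117% on the second and 103% on the eighth. Of these 44, 33 had a mean early level above the control, and 39 stood lower after 8 days than early. Over all transcripts compared these shares were 57.3% and 43.6%, and the 44 were chosen for early libraries above light, so their counts are given as a description. The 4 others stood above control at every time after light, at medians of 421% of it on the first day, 495% on the second and 233% on the eighth, against 234% at the end of light.

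All 26 lower transcripts at 1.5-fold were highest at the end of light among the 5 libraries, as were 19.3% of all transcripts compared, and the rule sets light above both early libraries. Of these, 15 stayed above the dark control on both early days, at medians of 360% after 1 day and 346% after 2 days, against 635% at the end of light, and had 185% after 8 days. The other 11 stood below the control on both early days, at medians of 74.7% and 73.5%, against 239% at the end of light, and had 87.7% after 8 days. At 2-fold, 6 of the 8 stood below the control on both early days and 2 above it. Over all transcripts compared, the mean early level was above the control for 57.3% and below it for 42.7%. The split of the 26 was thus near that of all transcripts.

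The 2 early days resembled each other more than either resembled light, apart from a small group higher on the second day. The 2-day library was at least 2-fold above the 1-day library for 12 transcripts (0.0563%) and at least 2-fold below it for 0. At 1.5-fold the balance was the other way, with 25 higher (0.117%) and 40 lower (0.188%). Of the 12, 8 were among the 21 called higher against light. In the 21 the log2 ratio of day 2 to day 1 had a median of 0.39, with 18 above 0. The interval of the ratio lay above 1 for 14, below 1 for 1 and spanned 1 for 6. The 6 alike transcripts described below are among the 14. The share of such intervals over all transcripts was not computed, so these counts are a description only. The 8 lower transcripts had a median of -0.04, with 3 above 0, and all transcripts had a median of -0.01, with 47.4% above 0. For the 114 transcripts higher at 1.5-fold the median was 0.04, with 61.4% above 0, so the second-day excess was larger in the 2-fold set. The 2-day library enters the choice of the 21, and a transcript high in it passes the mean of 2-fold more readily.

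The highest ratio between the days among transcripts of at least 5 CPM was that of SmedASXL_072995, which was not called against light. It had 22.8 CPM after 2 days and 6.57 CPM after 1 day, a ratio of 3.47 (3.04 to 3.96). Its level was 6.32 CPM at the end of light, 6.81 CPM after 8 days and 2.89 CPM in the dark control, so the 2-day library stood alone. SmedASXL_011684 followed, with 59.5 CPM after 2 days and 20.6 CPM after 1 day, a ratio of 2.89 (2.68 to 3.12). It had 16.7 CPM at the end of light, 27.0 CPM after 8 days and 22.2 CPM in the dark control. Its mean ratio to light passed 2-fold through the second day, since its first-day ratio to light was 1.23 (1.11 to 1.36).

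A block of 6 transcripts, noticed after the values were seen, had nearly the same levels in every library. They had 4.34 to 5.63 CPM after 2 days and 1.35 to 1.86 CPM after 1 day. Their levels were 0.754 to 1.04 CPM at the end of light, 2.73 to 3.02 CPM after 8 days and 8.13 to 9.30 CPM in the dark control. Within a library they differed by at most 0.31 on the log2 (CPM + 1) scale. The sources used here do not say how reads matching several contigs were counted, so 6 separate genes and contigs that share sequence cannot be told apart. They make up 6 of the 21 higher transcripts, 6 of the 8 called higher with a 2-fold excess on the second day, and 6 of the 10 at least 2-fold under the control after 8 days of dark. Without them the median log2 ratio of day 2 to day 1 in the other 15 was 0.33, with 12 above 0, against 47.4% of all transcripts compared.

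On the other side, the lowest ratios of day 2 to day 1 did not reach 2-fold on the CPM + 1 scale. SmedASXL_069112 had 6.19 CPM after 2 days and 12.2 CPM after 1 day, with 5.49 CPM at the end of light, 5.21 CPM after 8 days and 2.01 CPM in the dark control. SmedASXL_066978 had 4.88 CPM after 2 days and 9.67 CPM after 1 day, with 5.93 CPM at the end of light, 3.94 CPM after 8 days and 2.17 CPM in the dark control. Both were highest in the 1-day library, by 1.96-fold (1.70 to 2.27) and 1.98-fold (1.69 to 2.33) over the second day, and both exceeded the dark control in the other 4 libraries.

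**Figure D4:**
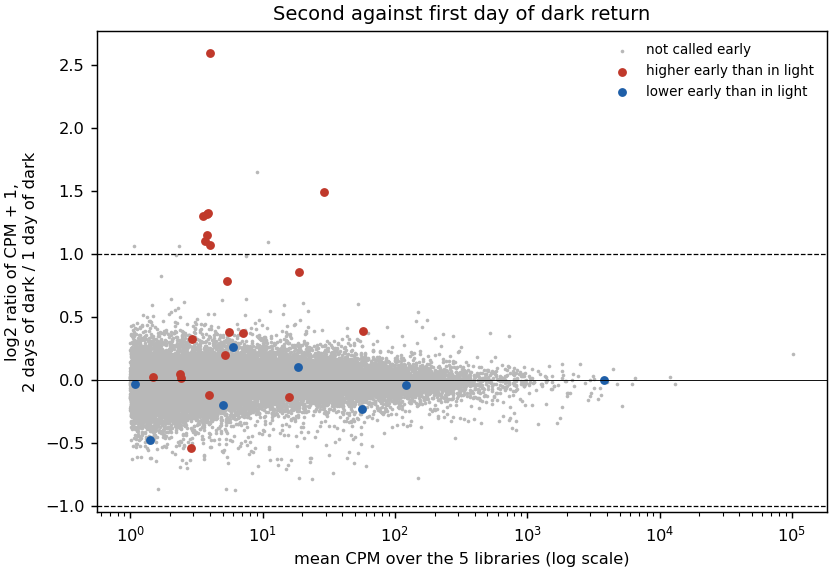
Log2 ratio of CPM + 1 between 2 days and 1 day of dark against the mean CPM over the 5 libraries (log scale), with transcripts called against light in colour and dashed lines at 2-fold. Of the 12 transcripts above the upper line, 8 were called higher early than in light (red); none lies below the lower line.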

How the data were processed

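The deposited table has 1 value per transcript and library. Per the file headers this signal is CPM (reads per 1000000) plus 1. Reads of 50 bases were trimmed by 15 bases and aligned to an assembled transcriptome, per the series' design text as given by the authors. The submitters' processing notes name the tools Bowtie2 2.2.4 and bcl2fastq 1.8.3. Counting of multiply matching reads and use of strand are not given in the sources used here. The authors' deposited ratio column is the quotient of the dark control and light columns and was not used in any result. After subtracting 1, 100% of the values above 0 were whole multiples of 1 read to within 0.001 reads, so reads were computed. Of columns with per-sample values, 0 were left unused.

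Transcripts averaging 1 CPM or more over the 5 libraries were compared by log2 ratios of (CPM + 1), which understate differences of low transcripts. No test was made, because each condition has 1 library. Named are the 2 highest and 2 lowest transcripts, among those averaging 5 CPM or more, of 5 comparisons: both early days against light, each day against light, day 2 against day 1, and both early days against the dark control. SmedASXL_001801 and SmedASXL_012104 were added after their values were seen. The comparison and lists were chosen with earlier results of these data known. Gene and marker lists could not be applied without gene names. The code was tested on simulated data. It used Python 3.11.15, numpy 2.4.6, pandas 2.3.3 and scipy 1.17.1. Alternatives were 0.1 and 5 CPM added, other filters and folds, trimmed-mean-of-M-values, median-of-ratios and other scalings of the reads, and other rules of agreement.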

Additional observations from a re-analysis of the deposited data

How the results depend on the processing

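Counts of transcripts past 2-fold against light were 21 higher and 8 lower as reported, and the balance moved with settings that weight low levels. They were 73 higher and 12 lower with 0.1 CPM added, 1 and 6 with 5 CPM added, 8 and 6 among transcripts averaging 5 CPM or more, 4 and 4 among those averaging 10 CPM or more, and 11 and 8 with each early library past 2-fold. At other folds they were 114 and 26 (1.5-fold), 2 and 5 (3-fold) and 1 and 3 (4-fold). With no filter they were 21 and 10. The scalings gave 19 to 25 higher and 8 to 10 lower and moved the median of all transcripts by less than 0.05 on the log2 scale. By the 1-day library alone they were 17 and 9, and by the 2-day library alone 29 and 10. Summing the reads of both early days and requiring the counting interval wholly past 2-fold, an alternative added after the data were seen, gave 49 and 8.

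The 12 transcripts higher on day 2 than on day 1 became 3 with 5 CPM added, 3 at an average of 5 CPM or more, 2 at 10 CPM or more, 25 at 1.5-fold, 2 at 3-fold and 1 at 4-fold. The 0 lower ones became 5 with 0.1 CPM added and 40 at 1.5-fold. The median log2 ratio of 8 days of dark to the dark control in the transcripts called higher was -1.52 with 0.1 CPM added. It changed sign to 0.54 with 5 CPM added, where 1 transcript is called, and to 0.38 at an average of 5 CPM or more, where 8 are called. Without the block of 6 alike transcripts, an alternative also added after the data were seen, it was -0.0136 over 15 transcripts, and the 12 higher on day 2 became 6. In the transcripts called higher against light, the median log2 ratio of day 2 to day 1 was 0.044 at 1.5-fold, over 114 transcripts. At 3-fold it was 1.69, over 2 transcripts. Of 91 values of the 13 transcripts named by rule or abundance, 1 changed sign: SmedASXL_066978 was at -0.24 by the 2-day library alone. A further 7 fell under 2-fold and 3 passed it. Causes were not tested, apart from fewer transcripts passing a stricter setting. No paired analysis was possible because each condition has 1 library.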
